A study of Mus musculus with 12 samples.

Results

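The genes described here encode the plasminogen activators, the urokinase receptor and inhibitors of the activators. They are Plau, Plat, Plaur, Serpine2 and Serpinb2, taken by symbol from the deposited expression matrix, 5 of 24346 genes with values. Plasminogen is a circulating zymogen that the urokinase-type activator (Plau) and the tissue-type activator (Plat) cleave to plasmin, a protease that dissolves fibrin and cuts matrix proteins. The urokinase receptor (Plaur), held to the membrane by a lipid anchor, concentrates urokinase at the cell surface. Serpine2, also called protease nexin, and Serpinb2, the activator inhibitor of macrophages and placenta, are serpins, inhibitors that trap their target protease in a covalent complex. Fibroblasts use this system in wound repair and in lung scarring, where fibrin has to be cleared.

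RNA was sequenced from NIH-3T3, a fibroblast line from NIH/Swiss mouse embryos, and MLg (also CCL206), a fibroblast line from the lung of newborn ddY mice. Cells at 85% confluence received vehicle or 1 µg/ml recombinant SHHN, the amino-terminal signalling fragment of Sonic hedgehog, for 48 h, all in DMEM with 0.5% FBS. Both lines were sequenced with and without the ligand, which makes 4 groups of 3 libraries each. Each tissue and age is represented by 1 line, and line, strain, age and tissue cannot be told apart. The labels do not say whether replicates were separate cultures, so p-values measure only the spread between these libraries.

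Values are FPKM, fragments scaled by transcript length and by the mapped total of the library, so levels can be compared between genes. The depth of the libraries is unknown. Between 13401 and 14793 genes per library were above 0, and across the tested genes the Spearman correlation was 0.973 to 0.995 within groups and 0.841 to 0.958 between groups. The Hedgehog targets Gli1 and Ptch1 followed the labels. Gli1 went from 0.131 to 147 FPKM in NIH-3T3 and from 0.583 to 120 FPKM in MLg, and Ptch1 from 2.39 to 138 FPKM and from 3.21 to 260 FPKM. All 10 fibroblast markers examined reached 0.5 FPKM in every NIH-3T3 library and 9 of 10 did in MLg, where Thy1 averaged 0.0701 FPKM in controls and 0.0236 FPKM with SHHN. None of 6 epithelial markers reached that level in all 3 libraries of any group, and Epcam was listed at 0 throughout.

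The promoter table held the start regions of Plaur, Serpine2 and Serpinb2. The 250 bases before the RefSeq start (build GRCm38.p6) are shown for Plaur and Serpine2, because Plaur was the member that rose in both lines and Serpine2 the member whose response differed between them. Capitals mark matches on either strand to the AP-1 motif TGANTCA or to the GC box GGGCGG. Neighbouring matches can overlap and then form 1 run of capitals.
Plaur, chr7:24462233-24462482, + strand: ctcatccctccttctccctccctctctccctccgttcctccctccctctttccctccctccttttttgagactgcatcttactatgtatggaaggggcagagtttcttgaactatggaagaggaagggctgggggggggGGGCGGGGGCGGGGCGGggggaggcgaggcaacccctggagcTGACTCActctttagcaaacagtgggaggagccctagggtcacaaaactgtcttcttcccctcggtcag
Serpine2, chr1:79858666-79858915, − strand: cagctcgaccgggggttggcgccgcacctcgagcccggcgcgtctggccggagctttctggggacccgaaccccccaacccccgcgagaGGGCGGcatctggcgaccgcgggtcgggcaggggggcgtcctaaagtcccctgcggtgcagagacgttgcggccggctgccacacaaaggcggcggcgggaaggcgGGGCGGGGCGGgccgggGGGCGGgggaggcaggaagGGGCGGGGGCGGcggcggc
The Plaur stretch held 3 GC boxes and 1 AP-1 match at position −69, counted from the start site. The Serpine2 stretch held 6 GC boxes and no AP-1 match, and its GC content was 78.8%, against 59.6% for Plaur and a median of 52.4% over all windows. The same 250 bases before the start were scanned in 32817 mouse windows, of which 6.8% held the AP-1 letters and 32.7% the GC box. The Gli motif GACCACCCA, present in 0.2% of windows, and the TATA box TATAAA, present in 12.4%, had no match in these 2 stretches. Serpinb2 had 2 overlapping windows, both with the same AP-1 match and the same TATA box, at positions −94 and −29 from the first start. A match is a description of these letters only.

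Urokinase mRNA (Plau, chromosome 14, 20836660 to 20843385 on the + strand of GRCm38, GENCODE M21) was lower with SHHN in both lines. In NIH-3T3 the control libraries held 16.9, 17.9 and 17.0 FPKM and the SHHN libraries 4.89, 4.30 and 4.04 FPKM. In MLg the controls held 42.4, 75.4 and 72.3 FPKM and the SHHN libraries 19.2, 23.9 and 22.7 FPKM. The groups did not overlap in either line, and MLg control replicate 1 was the lowest of its group. The mean fell from 17.3 ± 0.551 to 4.41 ± 0.432 FPKM (SD, n = 3) in NIH-3T3, a ratio of 3.92. It fell from 63.4 ± 18.2 to 21.9 ± 2.43 FPKM (SD, n = 3) in MLg, a ratio of 2.89. Fold changes below are differences between group means of log2(FPKM + 0.5) from limma, with Benjamini-Hochberg adjusted p-values over 12379 genes and a threshold of 0.05. On this scale Plau fell by 1.86 in NIH-3T3 (SE 0.18, adjusted p = 3.53e-06 in limma) and by 1.47 in MLg (SE 0.18, adjusted p = 4.12e-05). The difference between the 2 effects was −0.39 (95% interval −0.94 to 0.17, adjusted p = 0.354), so a stronger fall in NIH-3T3 was not established.

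The other activator gene, Plat (chromosome 8, 22757727 to 22782844, + strand), was also lower with SHHN in both lines. NIH-3T3 controls held 51.1, 55.5 and 48.6 FPKM, against 17.3, 27.0 and 27.0 FPKM with SHHN. MLg controls held 84.9, 80.7 and 78.0 FPKM, against 41.3, 40.8 and 37.7 FPKM with SHHN. No SHHN library reached the lowest control of its line. The mean went from 51.7 ± 3.48 to 23.8 ± 5.59 FPKM (SD, n = 3) in NIH-3T3 and from 81.2 ± 3.504 to 39.9 ± 1.95 FPKM (SD, n = 3) in MLg, ratios of 2.18 and 2.03. Plat fell by 1.13 log2 units in NIH-3T3 (SE 0.15, limma adjusted p = 4.96e-05) and by 1.02 in MLg (SE 0.15, adjusted p = 0.000164). The effects differed by −0.12 (95% interval −0.57 to 0.33, adjusted p = 0.756), which was not past the threshold.

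The receptor gene Plaur (chromosome 7, 24462484 to 24475968, + strand) moved the other way. NIH-3T3 controls held 8.03, 8.996 and 8.66 FPKM, and the SHHN libraries 21.1, 11.6 and 10.7 FPKM. MLg controls held 9.14, 8.96 and 6.62 FPKM, and the SHHN libraries 13.3, 14.7 and 13.5 FPKM. Every SHHN library was above every control of its line, and NIH-3T3 SHHN replicate 1 stood far above the other two of its group. Means rose from 8.56 ± 0.493 to 14.4 ± 5.78 FPKM (SD, n = 3) in NIH-3T3 and from 8.24 ± 1.41 to 13.8 ± 0.733 FPKM (SD, n = 3) in MLg. The log2 fold change was 0.66 in NIH-3T3 (SE 0.21, 95% interval 0.21 to 1.11, limma adjusted p = 0.0275) and 0.72 in MLg (SE 0.21, 95% interval 0.28 to 1.17, adjusted p = 0.0219). Without NIH-3T3 SHHN replicate 1 the NIH-3T3 value was 0.36 (adjusted p = 0.0944), and the NIH-3T3 call was also lost without control replicate 1 (0.0712) or 3 (0.0609). The MLg call was lost without any 1 of the 3 SHHN libraries (adjusted p = 0.0516, 0.0715 and 0.0604) or without control replicate 3 (0.0861). NIH-3T3 SHHN replicate 1 also had the lowest Plat value of its group. Its level of Cdh5, an endothelial cadherin, was the lowest, at 2.10 FPKM against 13.9 and 11.1 FPKM. Among fibroblast markers it held the least Dcn (369 against 762 and 948 FPKM) and Lum (51.7 against 115 and 154 FPKM). It held the most Fn1 (925 against 619 and 347 FPKM). Its mean Spearman correlation with its own group was 0.986, against 0.990 and 0.987 for the other two.

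Serpine2 (chromosome 1, 79794197 to 79861180, − strand) was lower with SHHN in NIH-3T3 and not in MLg, and the difference between lines passed the test. NIH-3T3 controls held 42.3, 44.8 and 46.3 FPKM and SHHN libraries 18.6, 20.1 and 22.03 FPKM, with no overlap. MLg controls held 4.33, 6.59 and 7.64 FPKM and SHHN libraries 5.11, 6.62 and 6.28 FPKM, all 3 of which lay inside the control range. The NIH-3T3 mean went from 44.5 ± 2.05 to 20.3 ± 1.70 FPKM (SD, n = 3), a ratio of 2.195. The MLg means were 6.19 ± 1.69 and 6.00 ± 0.789 FPKM (SD, n = 3). Serpine2 fell by 1.12 log2 units in NIH-3T3 (SE 0.17, limma adjusted p = 0.000191). In MLg the difference was −0.01 (95% interval −0.38 to 0.35, adjusted p = 0.973). The effect in NIH-3T3 minus that in MLg was −1.10 (SE 0.24, 95% interval −1.62 to −0.59, adjusted p = 0.00828). Even with SHHN, the NIH-3T3 libraries kept more Serpine2 than any MLg library.

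Serpinb2 (chromosome 1, 107511423 to 107535478, + strand) was close to 0 in both lines and was not tested. It was listed at 0 in 9 of 12 libraries. The other values were 0.0575 FPKM in NIH-3T3 control replicate 3, 0.0912 FPKM in MLg control replicate 2 and 0.0460 FPKM in MLg SHHN replicate 3.

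**Figure D1:**
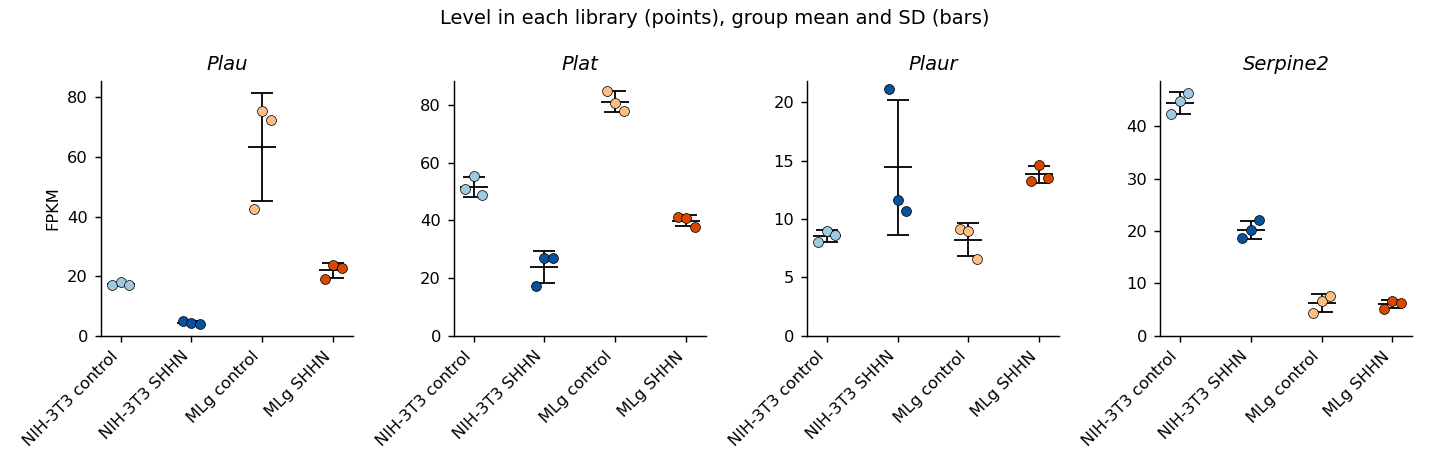
FPKM of Plau, Plat, Plaur and Serpine2 in each library, grouped by line and treatment, with points for libraries and bars for the group mean and SD. SHHN libraries lie below controls for Plau and Plat in both lines and above them for Plaur, while Serpine2 separates the treatments in NIH-3T3 (44.5 to 20.3 FPKM) and overlaps in MLg.

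Of the 4 members tested in NIH-3T3, 3 fell and 1 rose, where 31.4% of all tested genes were called (16.6% higher and 14.8% lower). In MLg 2 fell and 1 rose, where 22.8% were called (12.8% higher and 10.0% lower). The median log2 fold change of the 4 was −1.12 in NIH-3T3, with a median of −0.01 over all tested genes, and −0.51 in MLg, with a median of −0.003 over all. For the difference between lines 1 of 4 was called, where 13.4% of all genes were.

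**Figure D2:**
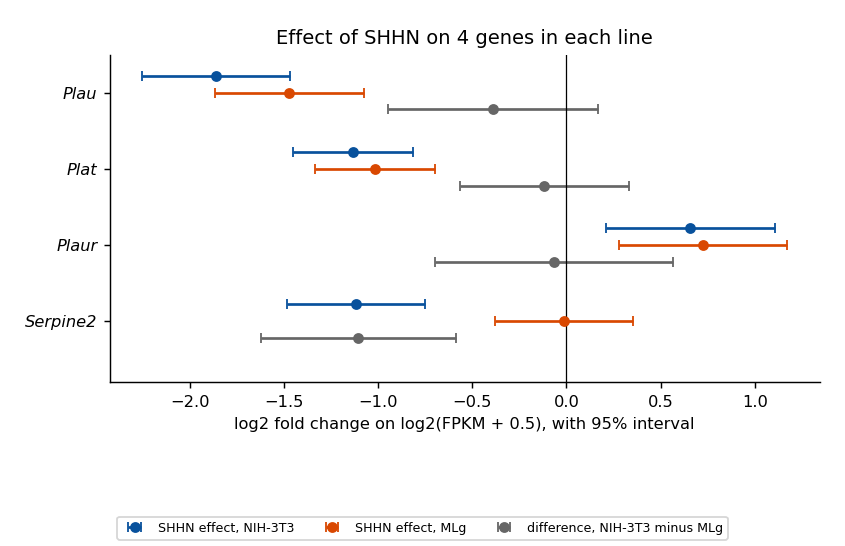
Log2 fold change of SHHN against control for the 4 tested members in NIH-3T3 and in MLg, and the difference between lines, each with its 95% interval from limma on log2(FPKM + 0.5). The interval of the difference leaves out 0 for Serpine2 (−1.62 to −0.59) and includes it for Plau, Plat and Plaur.

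The lines differed in these genes before any ligand was given. Among controls, Plau was 3.67 times lower in NIH-3T3 than in MLg (log2 difference −1.80, limma adjusted p = 2.09e-06) and Plat 1.57 times lower (−0.65, adjusted p = 0.00239). Serpine2 was 7.19 times higher in NIH-3T3 (log2 difference 2.78, SE 0.17, adjusted p = 1.11e-08). Plaur differed by 0.06 (95% interval −0.38 to 0.51, adjusted p = 0.822). Thus 3 of 4 members were called between the control groups, where 50.1% of all tested genes were. Under SHHN the same 3 were called, against 46.8% of all genes. The Plau ratio was then 4.97 (log2 difference −2.19, adjusted p = 3.4e-07), the Plat ratio 1.68 (−0.76, adjusted p = 0.0008) and the Serpine2 ratio 3.37 (1.68, adjusted p = 2.41e-06). Plaur differed by −0.0025 under SHHN (95% interval −0.45 to 0.45, adjusted p = 0.994).

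Ordered by mean, Plau ran from MLg control through MLg SHHN and NIH-3T3 control to NIH-3T3 SHHN. The middle neighbours, MLg SHHN at 19.2 to 23.9 FPKM and NIH-3T3 control at 16.9 to 17.9 FPKM, did not overlap, and their difference was not tested. Plat ran from MLg control through NIH-3T3 control and MLg SHHN to NIH-3T3 SHHN, again without overlap between neighbours. For Plaur both SHHN groups came first and both control groups last, and within each of these 2 pairs the libraries overlapped. Serpine2 ran from NIH-3T3 control to NIH-3T3 SHHN and then to the 2 MLg groups, which overlapped.

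Set against all tested genes, Plat was among the more abundant transcripts of the control cells. Its mean exceeded that of 87.1% of genes in NIH-3T3 control and 92.2% in MLg control, and 71.4% and 82.8% with SHHN. For Plau the share was 62.9% in NIH-3T3 control and 26.7% with SHHN, and 89.7% and 69.1% in MLg. Plaur, a mid-range transcript in the controls, went from 42.4% to 57.0% in NIH-3T3 and from 41.8% to 55.7% in MLg. Serpine2 stood at 84.9% and 67.3% in NIH-3T3, and at 34.4% and 32.7% in MLg.

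Ratios of FPKM within a library do not depend on scaling between libraries. With 3 libraries against 3, the smallest two-sided p of the exact permutation test is 0.1, so no ratio could pass 0.05 and the values are given for their size. Urokinase to receptor (Plau to Plaur) went from 2.02 ± 0.0723 to 0.327 ± 0.0829 in NIH-3T3 (SD, n = 3, 6.32 times lower, exact p = 0.1). In MLg it went from 7.99 ± 3.16 to 1.58 ± 0.120 (SD, n = 3, 4.76 times lower, exact p = 0.1). NIH-3T3 thus changed from more activator than receptor transcript per length to less, in all 3 libraries, and MLg did not cross 1. Plau to Serpine2 went from 0.389 ± 0.0184 to 0.220 ± 0.0397 in NIH-3T3 and from 10.2 ± 1.06 to 3.66 ± 0.0842 in MLg (SD, n = 3, exact p = 0.1 in each). NIH-3T3 therefore held less urokinase than Serpine2 transcript per length in both conditions, and MLg more in both.

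The ratio Plat to Serpine2 averaged 1.17 ± 0.102 in NIH-3T3 controls and 1.17 ± 0.212 with SHHN (SD, n = 3, exact p = 0.9), both transcripts having fallen. In MLg it went from 14.0 ± 4.96 to 6.75 ± 1.16 (SD, n = 3, exact p = 0.1), with Plat lower and Serpine2 at its former level. Plau to Plat went from 0.334 ± 0.0143 to 0.197 ± 0.0738 in NIH-3T3 (SD, n = 3, exact p = 0.1), with 0.282 in SHHN replicate 1 against 0.159 and 0.1496. In MLg it was 0.787 ± 0.249 and 0.551 ± 0.0749 (SD, n = 3, exact p = 0.3), and the groups overlapped. Adjusted over the 8 ratios tested, the exact p-values were 0.1333 where the raw p was 0.1.

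**Figure D3:**
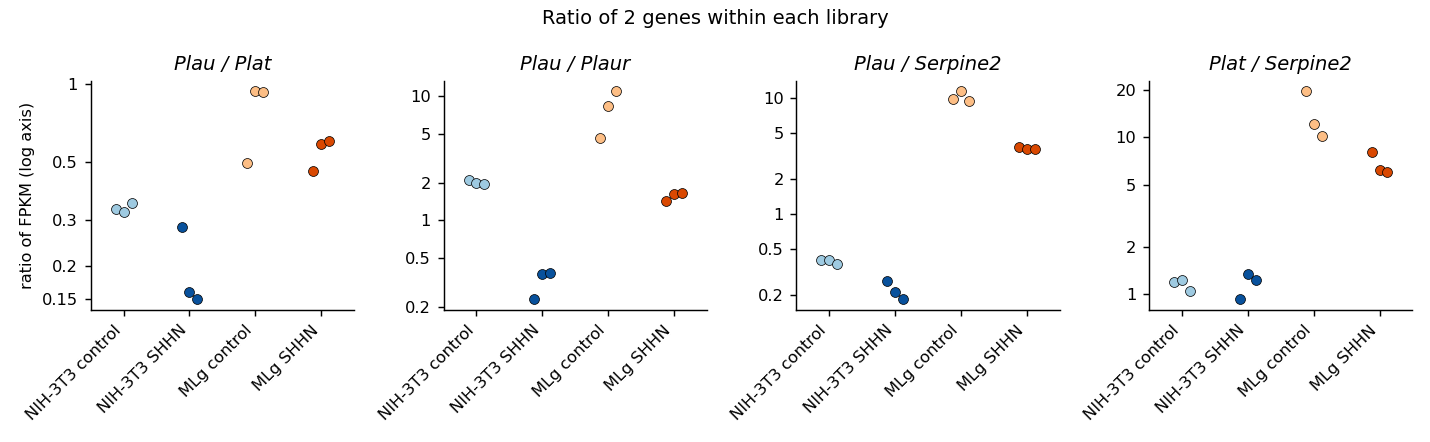
Ratio of FPKM of 2 members within each library, on log axes, for Plau to Plat, Plau to Plaur, Plau to Serpine2 and Plat to Serpine2, with 1 point per library. Plau to Plaur separates treated and control libraries in both lines (2.02 to 0.327 in NIH-3T3 and 7.99 to 1.58 in MLg), and Plat to Serpine2 does not in NIH-3T3.

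Over the 12 libraries, which share 4 group means, correlations of log2(FPKM + 0.5) describe which genes had similar profiles. Plau and Plat had a Pearson r of 0.905 with each other. Plaur had −0.786 with Plat and −0.537 with Plau, and Serpine2 had −0.519 with Plau, −0.294 with Plat and −0.188 with Plaur. Among all tested genes the 3 nearest to Plau were Gpr176, an orphan receptor (0.989), Aplp2, a relative of the amyloid precursor (0.983), and Ankrd1, an ankyrin repeat protein (0.981). Ankrd1 averaged 5.63 and 0.826 FPKM in NIH-3T3 control and SHHN and 27.4 and 4.67 FPKM in MLg. Nearest to Plat were P2rx4, an ATP-gated channel (0.983), Irgm2, an interferon-inducible GTPase (0.983), and Vamp5 (0.982). Plaur had Nfatc1, a calcium-regulated transcription factor (0.951), Ms4a15 (0.943) and Ier2, an immediate early gene (0.935). Ms4a15 averaged 0 FPKM in both control groups, 0.753 FPKM in NIH-3T3 SHHN and 0.775 FPKM in MLg SHHN. The filter thus admitted Ms4a15 through SHHN libraries only, which favoured its likeness to Plaur, and its r gives no support. Ier2 averaged 9.94 and 18.6 FPKM in NIH-3T3 and 10.97 and 21.4 FPKM in MLg. Serpine2 had Rps6, a ribosomal protein gene (0.995), Adam23 (0.990) and Clvs1 (0.989). Clvs1 averaged 0.751 FPKM in NIH-3T3 control and 0.0223 FPKM in MLg control, and the filter admitted it through NIH-3T3 libraries only. These are descriptions over samples from 4 groups, and genes with similar profiles were not tested for any relation.

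The gene for the substrate of both activators, Plg, was listed at 0 in 11 of 12 libraries, with 0.0341 FPKM in the remaining library, MLg SHHN replicate 3. Of 15 partner genes (plasminogen, contact factors, other activating proteases and inhibitors) 6 were tested. In NIH-3T3 3 of them rose and none fell in limma (0 lower also at an unadjusted p under 0.05), with a median log2 fold change of 0.54. In MLg 1 rose and 1 fell, with a median of 0.04. Counts of this and the following lists stand against 16.6% of all tested genes higher and 14.8% lower in NIH-3T3, 12.8% and 10.0% in MLg, and medians over all genes of −0.01 and −0.003. Serping1, the complement C1 inhibitor, went from 0.139 ± 0.0366 to 3.11 ± 0.473 FPKM in NIH-3T3 (log2 fold change 2.49, SE 0.14, limma adjusted p = 1.82e-08), and in MLg it averaged 57.3 and 46.5 FPKM (−0.30, adjusted p = 0.15). Serpinb8 rose in both lines, from 4.74 to 19.0 FPKM in NIH-3T3 (1.88, adjusted p = 1.02e-05) and from 8.13 to 13.4 FPKM in MLg (0.70, adjusted p = 0.0248). Its MLg call was lost without MLg SHHN replicate 1 or 3 or MLg control replicate 2 or 3 (highest adjusted p = 0.117). Serpinb9, the inhibitor of granzyme B, rose from 5.06 to 8.28 FPKM in NIH-3T3 (0.66, adjusted p = 0.00692) and was at 27.8 and 33.9 FPKM in MLg (adjusted p = 0.237). The fit on the 6 NIH-3T3 libraries gave Serpinb9 an adjusted p of 0.0544. Masp1, a serine protease of the complement lectin pathway, fell in MLg from 31.4 ± 7.31 to 10.9 ± 1.74 FPKM (−1.48, adjusted p = 2.38e-05) and was at 2.12 and 2.04 FPKM in NIH-3T3.

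Of 19 genes listed for receptors, ligands and clearance around plasminogen and urokinase, 18 were tested. Integrins, Egfr and Cd109 were on this list, and not all its genes encode receptors of plasminogen or urokinase. In NIH-3T3 2 rose (Eno1 and Egfr) and 4 fell (Anxa2, Vldlr, Mrc2 and Vtn), and in MLg 3 fell (Anxa2, S100a10 and Mrc2), while Vldlr and Cd109 were among those that rose. The list medians were −0.09 and −0.15. The 6 of 18 called in NIH-3T3 stand against 31.4% of all tested genes. Anxa2, which forms the annexin-S100a10 plasminogen receptor, fell from 494 ± 97.2 to 322 ± 29.1 FPKM in NIH-3T3 (log2 fold change −0.60, limma adjusted p = 0.00534) and from 690 ± 53.5 to 430 ± 23.2 FPKM in MLg (−0.68, adjusted p = 0.00299). The dedicated plasminogen receptor gene Plgrkt was at 27.5 and 26.01 FPKM in NIH-3T3 (adjusted p = 0.765) and at 33.2 and 29.1 FPKM in MLg (adjusted p = 0.47). Mrc2, a collagen uptake receptor that associates with the urokinase receptor, fell from 67.1 ± 4.63 to 48.5 ± 4.64 FPKM in NIH-3T3 (−0.47, adjusted p = 0.00615) and from 276 ± 12.6 to 89.4 ± 9.49 FPKM in MLg (−1.63, adjusted p = 2.7e-07).

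Lrp1, the endocytic receptor that removes complexes of activator and inhibitor, averaged 210 ± 58.3 and 300 ± 72.5 FPKM in NIH-3T3 (0.52, limma adjusted p = 0.0729, and 0.69 with 0.0336 without SHHN replicate 3 or 0.73 with 0.0156 without control replicate 1) and 428 ± 60.3 and 441 ± 47.3 FPKM in MLg (adjusted p = 0.913). Its relative Vldlr fell in NIH-3T3 from 0.969 to 0.460 FPKM (−0.61, adjusted p = 0.014, and 0.0534 with a pseudocount of 1) and rose in MLg from 12.8 to 25.95 FPKM (1.02, adjusted p = 0.000532). Vtn, for vitronectin, a matrix ligand of the urokinase receptor, fell in NIH-3T3 from 2.92 ± 0.402 to 0.959 ± 0.315 FPKM (−1.25, adjusted p = 8.75e-05). In MLg Vtn was at most 0.0744 FPKM.

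Among 20 genes for substrates and for factors that plasmin or the activators release, 15 were tested, and the 3 fibrinogen chain genes were listed at 0 in all libraries. Lamc1, Pdgfc and Ltbp2 rose and Thbs1 and Mmp9 fell in NIH-3T3, which is 3 and 2 of 15. In MLg 2 rose (Pdgfc and Pdgfd) and 3 fell (Lamb1, Thbs1 and Mmp3). The medians were −0.04 in both lines. The 5 of 15 called in each line stand against 31.4% of all tested genes in NIH-3T3 and 22.8% in MLg. Pdgfc, a growth factor that the tissue-type activator cleaves to its active form, rose from 6.35 ± 0.843 to 27.7 ± 4.66 FPKM in NIH-3T3 (log2 fold change 2.04, limma adjusted p = 2.14e-07) and from 4.26 ± 0.351 to 22.2 ± 3.24 FPKM in MLg (2.25, adjusted p = 2.09e-07). Plat fell in the same libraries. Thbs1, a matricellular thrombospondin, fell from 60.4 ± 11.5 to 7.53 ± 1.16 FPKM in NIH-3T3 (−2.91, adjusted p = 2.72e-07) and from 437 ± 134 to 192 ± 24.1 FPKM in MLg (−1.14, adjusted p = 0.0017). The gelatinase gene Mmp9 fell in NIH-3T3 from 29.4 ± 3.78 to 5.70 ± 0.834 FPKM (−2.27, adjusted p = 2.02e-06) and was at 8.53 and 7.88 FPKM in MLg. The stromelysin gene Mmp3 fell in MLg from 6.72 ± 3.29 to 0.436 ± 0.0820 FPKM (−2.86, adjusted p = 1.05e-06) and was at or near 0 in NIH-3T3. Outside the MLg controls only MLg SHHN replicate 3 reached 0.5 FPKM, at 0.521 FPKM. Mmp3 thus entered the test through the group where it was high. The filter favoured its call in the count above, and that call gives no support.

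Among 14 coagulation genes 7 were tested and 3 were listed at 0 throughout. In NIH-3T3 1 rose and 1 fell (median −0.25, 31.4% of all genes called), and in MLg 1 rose and 3 fell (median −0.50, 22.8% of all genes called). Thbd, for thrombomodulin, the surface cofactor that turns thrombin to the activation of protein C, rose from 37.8 ± 4.86 to 103 ± 4.50 FPKM in NIH-3T3 (log2 fold change 1.45, limma adjusted p = 1.42e-05) and from 19.5 ± 5.02 to 66.9 ± 4.38 FPKM in MLg (1.79, adjusted p = 2.95e-06). F3, for tissue factor, the starter of coagulation, fell from 39.9 to 26.04 FPKM in NIH-3T3 (−0.61, adjusted p = 0.00192) and from 76.3 to 53.2 FPKM in MLg (−0.51, adjusted p = 0.00856). The thrombin receptor gene F2r fell in MLg from 136 ± 30.3 to 54.9 ± 5.46 FPKM (−1.28, adjusted p = 9.21e-05) and was at 28.3 and 24.8 FPKM in NIH-3T3 (adjusted p = 0.528). Procr, the protein C receptor gene, fell in MLg from 5.19 to 2.77 FPKM (−0.80, adjusted p = 0.000251) and was at 9.61 and 7.74 FPKM in NIH-3T3 (−0.30, adjusted p = 0.0799, and 0.0437 with quantile normalization).

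Of 11 other serpin genes 6 were tested. Serpinb5 reached 0.5 FPKM in the NIH-3T3 control libraries only, so it entered the test through the group where it was high, and it is left out of the counts. Of the other 5, 4 fell and none rose in NIH-3T3 (median −0.83, against −0.01 over all genes and 14.8% of all genes lower). In MLg 2 fell and none rose (median −0.28, against −0.003 and 10.0% lower). At an unadjusted limma p under 0.05 the count of higher genes was 0 in both lines. The 4 were Serpinf1, Serpinh1, Serpina3n and Serpina3g, and they do not share a function in fibrinolysis. Serpinf1, a secreted serpin that does not inhibit proteases, fell from 387 ± 63.1 to 201 ± 39.3 FPKM in NIH-3T3 (log2 fold change −0.96, limma adjusted p = 0.00053) and was at 245 and 203 FPKM in MLg (adjusted p = 0.271). Serpinh1, a collagen chaperone, fell from 365 to 203 FPKM in NIH-3T3 (−0.83, adjusted p = 0.000771). In MLg it fell from 472 to 345 FPKM (−0.44, adjusted p = 0.0461), a call lost without the filter (0.0687) and when any library other than MLg control replicate 3 or NIH-3T3 control replicate 1 or 2 was left out (highest adjusted p = 0.15). Serpina3g fell from 30.9 ± 1.23 to 10.5 ± 1.15 FPKM in MLg (−1.52, adjusted p = 2.13e-05) and from 0.827 to 0.128 FPKM in NIH-3T3 (−1.07, adjusted p = 0.000368). Serpinb5 averaged 0.977 and 0.258 FPKM in NIH-3T3 control and SHHN and was listed at 0 in MLg. Members of the serpin and Ly6 families can share near-identical sequence, and how the quantification split such reads is not given in the sources used here.

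The urokinase receptor belongs to the Ly6 family of three-finger domain proteins, and 8 of 13 other genes of this family were tested. Slurp1 reached 0.5 FPKM in the NIH-3T3 SHHN libraries only, where it averaged 1.64 FPKM, was listed at 0 in the other groups and is left out of the counts. Of the other 7, 1 rose (Lypd2) and 1 fell (Ly6c1) in NIH-3T3 (median −0.10, 31.4% of all genes called). In MLg 2 rose (Lypd1 and Lypd2) and 4 fell (Ly6a, Ly6c1, Ly6e and Cd59a), with a median of −0.65 (12.8% of all genes higher and 10.0% lower). Lypd2 was listed at 0 in all control libraries and averaged 12.8 ± 3.09 FPKM in NIH-3T3 SHHN and 0.496 ± 0.405 FPKM in MLg SHHN. It entered the test through SHHN libraries only, so the filter favoured its calls in the counts above, and they give no support. The MLg SHHN libraries held 0.268, 0.256 and 0.964 FPKM, and only replicate 3 reached 0.5 FPKM. Lypd1 rose in MLg from 1.93 ± 0.435 to 5.55 ± 1.04 FPKM (log2 fold change 1.32, adjusted p = 6.02e-05) and was at most 0.152 FPKM in NIH-3T3. Ly6c1 fell from 22.6 ± 3.97 to 6.25 ± 3.37 FPKM in NIH-3T3 (−1.88, adjusted p = 0.000719) and from 14.7 ± 6.87 to 1.68 ± 0.205 FPKM in MLg (−2.71, adjusted p = 4.05e-05). Ly6e fell in MLg from 126 ± 25.8 to 52.2 ± 3.19 FPKM (−1.25, adjusted p = 2.57e-05) and was at 84.7 and 67.6 FPKM in NIH-3T3 (adjusted p = 0.117).

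**Figure D4:**
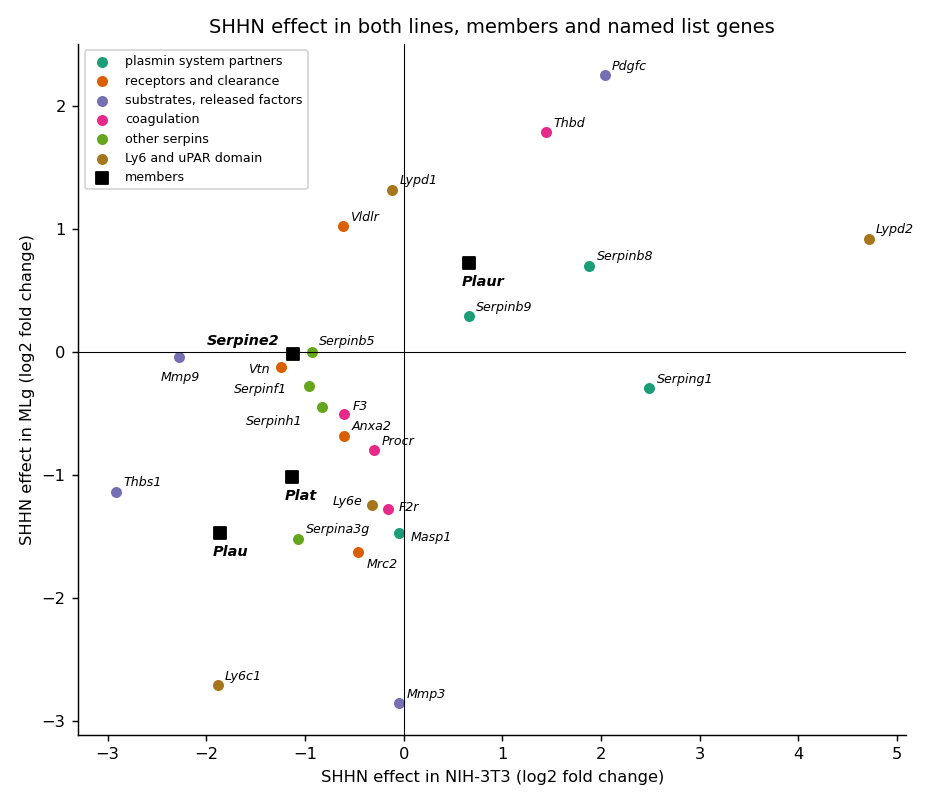
Log2 fold change of SHHN against control in NIH-3T3 (horizontal) and MLg (vertical) for the 4 tested members (squares) and the named genes of 6 lists (circles, coloured by list). Plau and Plat lie at the lower left with Thbs1 and Ly6c1, Plaur in the upper right with Thbd, Pdgfc and Serpinb8, and Serpine2 on the line of no change in MLg.

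Some other measures also moved with SHHN in the same libraries, and others overlapped between treatments. The summed level of the 5 cell cycle genes Mki67, Top2a, Ccnb1, Plk1 and Mcm5 was 40.6 to 61.4 FPKM in NIH-3T3 controls and 223 to 253 FPKM with SHHN, and 54.5 to 78.7 FPKM and 348 to 423 FPKM in MLg. Summed fibroblast markers were 14003 to 15730 FPKM in NIH-3T3 controls and 9368 to 11087 FPKM with SHHN. In MLg they were 9731 to 11205 FPKM and 9013 to 10852 FPKM, which overlapped. The collagen genes Col1a1, Col1a2 and Col3a1 made up the largest parts of these sums. In NIH-3T3 the mean of Thy1 rose from 121 to 186 FPKM, while the means of the other fibroblast markers fell. In MLg the means of Dcn (371 and 433 FPKM), Fn1 (884 and 1172 FPKM) and Col1a1 (2582 and 2601 FPKM) were higher with SHHN. Those of the other fibroblast markers were lower. In these bulk samples, fewer cells expressing a gene and less of its RNA per cell cannot be told apart. The part of any marker shift in the results for the activators, the receptor and Serpine2 was not tested. Summed endothelial markers (5 genes) were 5.75 to 7.93 FPKM in NIH-3T3 controls, 6.73 to 25.3 FPKM with SHHN, 0.101 to 0.154 FPKM in MLg controls and 5.78 to 6.51 FPKM with SHHN. Cdh5 averaged 9.06 FPKM in NIH-3T3 SHHN and 5.03 FPKM in MLg SHHN, and Tek 6.86 and 8.76 FPKM in NIH-3T3 control and SHHN and 0.0547 and 0.943 FPKM in MLg. The other endothelial markers Pecam1 and Kdr were at most 0.137 and 0.0128 FPKM, and Emcn was listed at 0. Summed leukocyte markers (7 genes) were 1.70 to 3.16 FPKM in NIH-3T3 and 4.92 to 7.79 FPKM in MLg, most of it Cd14, at 0.861 and 1.46 FPKM in NIH-3T3 control and SHHN and 5.30 and 4.28 FPKM in MLg, and Cd68, at 0.593 to 1.12 FPKM in the 4 groups. The pan-leukocyte marker Ptprc was at most 0.101 FPKM and Adgre1 was listed at 0. The 3 keratinocyte markers summed to at most 1.25 FPKM and the 6 epithelial markers to at most 0.704 FPKM.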

How the data were processed

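RNA sequencing of 12 libraries, 3 for each line and treatment, was analysed from 1 table of FPKM per gene and library that the authors computed and deposited. Per the submitters' processing notes, bcl2fastq, TopHat2 2.0.12, Cufflinks 2.2.1 and mm10 were used; the annotation and any scaling between libraries are not given in the sources used here. FPKM divides fragments by transcript length and library total, so a change in a few abundant genes shifts all others. Read counts were not used here. Ratios of values under 0.15 FPKM between libraries were examined for gathering at fixed steps. Over 66 pairs the fullest 0.05 log2 bin held 2.43% of genes in the lowest pair. It held 10.14% in the second highest pair and 19.52% in the highest, so some pairs may hold such a step. Depth was not derived from these ratios, so it stays unknown here and no counting interval is given. Total FPKM per library was 470218 to 659862.

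Line, treatment and replicate number in the column names gave each library its sample. Of 24347 entries 1 had no values. The filter kept 12379 genes that reached 0.5 FPKM in 3 or more libraries. A limma model (version 3.58.1, R 4.3.3) of log2(FPKM + 0.5) used 4 group means, a variance trend and two-sided Benjamini-Hochberg adjusted p-values at 0.05. The pseudocount understates changes of low genes. It gave 5 comparisons: treated against untreated cells of either line, the difference of these effects, and the lines against each other under each treatment. Those that share groups are not independent. The fit was tested on simulated data.

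After removal of group means, libraries of MLg control and SHHN with the same number correlated at 0.132, 0.157 and 0.241. These are correlations across genes, which are not independent. The numbers may thus mark pairs in MLg. In NIH-3T3 the values were −0.001, −0.101 and 0.027. The main fit did not use the numbers in either line, and the replicate block was run as an alternative only. Across lines, all 3 same-number values were over 0.1 between NIH-3T3 control and MLg SHHN (0.207, 0.182 and 0.13) and in no other pair of groups. The largest same-number values were between NIH-3T3 control and MLg control, at 0.445 and 0.395 for numbers 2 and 3. Number 1 had −0.072 there, and unequal numbers of these control groups ranged from −0.488 to 0.262. The block was the number within a line for SHHN effects and the number shared by both lines for comparisons of lines.

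The members and gene lists were chosen with earlier results of these data known. Named genes were the members, the 3 genes nearest to each by Pearson r (predicted genes left out), up to 4 genes with the smallest p per list, Plg, Plgrkt, Lrp1 and Vtn, and Gli1 and Ptch1; other list genes are named only to spell out a count, after their values were seen. Alternatives were pseudocounts of 0.1 and 1, a 1 FPKM filter, no filter, median-ratio scaling, quantile normalization, 6 libraries per fit, a replicate block, robust variances and leaving out each library. Promoter windows are from RefSeq (GRCm38.p6), and 3 of 5 members matched. Further serpins are not analysed here, and some list genes are not reported here.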

Additional observations from a re-analysis of the deposited data

Results flagged for a closer look

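The response to SHHN differed between the lines by the interaction test in limma for 1 of the 4 tested members, for 14 other genes named by the rule and for 10 further genes named in the text. Over all tested genes 13.4% were called for this difference. Many of the named genes were chosen for a small p-value of SHHN or after their values were seen. These counts therefore cannot be read against that share. All values below are the log2 effect in NIH-3T3 minus that in MLg. Serpine2 had −1.10 (adjusted p = 0.00828), with a fall in NIH-3T3 and values inside the control range in MLg.

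Among inhibitors and partner proteases, Serping1 had 2.79, Serpinb8 1.18 and Masp1 1.43. For receptors, ligands and clearance, the values were 1.16 for Mrc2, 1.25 for Egfr, −1.12 for Vtn and −1.64 for Vldlr, whose effects were called in opposite directions in the 2 lines. Among substrates and matrix proteases, Thbs1 had −1.78, Lamb1 1.04, Mmp3 2.82 and Mmp9 −2.23. The thrombin receptor gene F2r had 1.12. In the Ly6 family, Lypd2 had 3.79, Ly6a 2.32, Ly6e 0.93 and Lypd1 −1.43. Lypd2 was listed at 0 in all controls and entered the test through SHHN libraries only, so its value is a description. Mmp3 passed the filter through the MLg control libraries, so its value is a description as well. Gli1, the ligand check, had 1.04 with strong rises in both lines. Of the marker genes, Thy1 had 0.73, Cd14 0.81, Top2a −1.46, Ccnb1 0.93 and Plk1 1.17. Rps6 had −0.89 and Adam23 −1.61, and both were chosen for a profile like that of Serpine2. Vtn and Thy1 in MLg, and Mmp3 and Lypd1 in NIH-3T3, were at or near 0 FPKM under both treatments.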

How the results depend on the processing

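The calls of Plau and Plat in both lines and of Serpine2 in NIH-3T3 held under all 21 alternatives run. Plau ranged from −1.95 to −1.76 in NIH-3T3 and from −1.73 to −1.32 in MLg, Plat from −1.24 to −0.92 and from −1.05 to −0.97, and Serpine2 in NIH-3T3 from −1.18 to −1.06. The Serpine2 difference between lines ranged from −1.26 to −0.89 over 20 alternatives (limma adjusted p from 0.00324 to 0.027). Plaur kept its direction, but besides the left-out libraries named above its NIH-3T3 call was lost with 6 libraries per fit (adjusted p = 0.126), without a filter (0.0521) and at the threshold with quantile normalization (0.62, adjusted p = 0.05). The replicate block gave −1.86 and −1.47 for Plau, 0.66 and 0.72 for Plaur (adjusted p = 0.037 and 0.0328) and −1.10 for the Serpine2 difference, and it changed no call of the members. The number of genes called for the difference between lines ranged from 1056 (without MLg SHHN replicate 3) to 2311 when each library was left out, against 1662.

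Values near 0 that were past no threshold changed sign when libraries were left out. Their ranges were −0.22 to 0.0914 for the Plat difference between lines, −0.36 to 0.11 for the Plaur difference, −0.0776 to 0.14 for Plaur between controls, −0.30 to 0.18 for Plaur between SHHN groups and −0.23 to 0.15 for Serpine2 in MLg. They were −0.10 to 0.0486 for Masp1 in NIH-3T3, −0.22 to 0.25 for Mmp9 in MLg, −0.22 to 0.0108 for Plgrkt in NIH-3T3, −0.0657 to 0.14 for Lrp1 in MLg and −0.12 to 0.14 for the log2 ratio Plat to Serpine2 in NIH-3T3. Plaur between SHHN groups was 0.0107 with median-ratio scaling and 0.0057 with quantile normalization. The cause was not tested. Unknown depth limits low genes such as Serpinb2 and Plg, for which a value of 0 sets no bound.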
